A study of Homo sapiens with 15 samples.

Results

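The genes that copy DNA and the genes that carry a cell through mitosis were followed through 15 microarrays of 9 human lymphoid cell lines. The group holds 42 genes of 19735 measured, 28 of S phase (DNA replication, nucleotide supply and entry into S phase) and 14 of mitosis. A gene was a member if its symbol was on a fixed list and was the only symbol of at least 1 probe set of the array, and it was represented by the probe set with the highest mean over the 15 arrays. All 42 listed genes were measured, on 94 probe sets, and 41 of them had a mean log2 signal of at least 8.

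RNA was measured on Affymetrix U133 Plus 2.0 arrays, and signals are log2 values from RMA (robust multi-array average), so that 1 log2 unit is a doubling of signal. The classical Hodgkin lymphoma lines were L428, L1236, KM-H2 and HDLM2, each with 2 arrays, and L540 and L540Cy, each with 1 array. The other lines were Reh (B cell acute lymphoblastic leukaemia) and Namalwa (Burkitt lymphoma), each with 2 arrays, and SU-DHL-4 (a non-Hodgkin lymphoma of B cells), with 1 array. Replicates of a line are biological duplicates per the series text, all lines were untreated as far as the labels say, and each established line descends from the tumour of 1 patient. L540Cy is known from background as a subline of L540. The fit of single arrays with 1 mean per line used the spread between duplicate arrays. That spread, from the other lines, stands in for that of L540, L540Cy and SU-DHL-4, whose own spread between cultures was not measured. Fits on line means used the spread between lines.

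Before a cell divides, licensing factors load the ring-shaped MCM helicase onto origins of replication, and in S phase CDC45 and the GINS complex turn that ring into an active helicase followed by polymerases. E2F transcription factors switch on many S phase genes once cyclin E with CDK2 has freed them from the retinoblastoma protein. Mitotic genes peak later, and many of them share CCAAT boxes and a short element called the cell cycle homology region (CHR), bound by the DREAM and MuvB complexes. In a growing culture the RNA level of both groups follows the share of cells that are cycling, so they are used as a measure of proliferation in lymphoma.

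The promoters of the members show these elements, and 8 are given as examples of both classes, 5 of them (MCM6, GINS2, MCM7, CCNB2 and CCNA2) from genes called lower in L540Cy further on. Each run is the 200 bases that end just before the transcription start site, from RefSeq (GRCh38.p14), written 5′ to 3′ on the gene's strand. Capitals mark the words searched, on either strand: for E2F the word TTGGCGC, its variant TTCGCGC or the word GCGGGAA, for the CHR the word TTTGAA or its variant TTCGAA, and for the CCAAT box those letters. Words overlap where capitals run on.
MCM6, chr2:135876444-135876643, minus strand: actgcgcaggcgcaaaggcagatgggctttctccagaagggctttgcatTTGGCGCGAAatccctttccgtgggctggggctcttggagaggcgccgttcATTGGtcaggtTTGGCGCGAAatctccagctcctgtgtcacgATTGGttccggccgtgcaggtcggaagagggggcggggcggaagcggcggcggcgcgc
GINS2, chr16:85688955-85689154, minus strand: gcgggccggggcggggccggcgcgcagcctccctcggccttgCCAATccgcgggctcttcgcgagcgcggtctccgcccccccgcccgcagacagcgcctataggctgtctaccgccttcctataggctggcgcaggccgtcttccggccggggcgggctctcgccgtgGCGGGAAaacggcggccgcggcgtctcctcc
MCM7, chr7:100101398-100101597, minus strand: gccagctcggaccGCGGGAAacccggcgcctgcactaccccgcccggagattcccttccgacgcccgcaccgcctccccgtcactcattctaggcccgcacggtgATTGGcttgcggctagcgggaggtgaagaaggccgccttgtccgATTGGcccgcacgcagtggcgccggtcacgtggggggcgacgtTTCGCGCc
PCNA, chr20:5126623-5126822, minus strand: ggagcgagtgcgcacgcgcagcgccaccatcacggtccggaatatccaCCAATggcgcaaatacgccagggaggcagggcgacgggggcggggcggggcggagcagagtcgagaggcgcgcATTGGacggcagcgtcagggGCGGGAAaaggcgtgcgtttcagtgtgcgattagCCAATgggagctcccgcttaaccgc
CCNB2, chr15:59104946-59105145, plus strand: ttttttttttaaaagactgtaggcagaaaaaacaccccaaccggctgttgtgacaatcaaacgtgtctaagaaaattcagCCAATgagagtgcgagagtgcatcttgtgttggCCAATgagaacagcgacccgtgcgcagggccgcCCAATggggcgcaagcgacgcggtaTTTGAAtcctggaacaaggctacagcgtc
PLK1, chr16:23678689-23678888, plus strand: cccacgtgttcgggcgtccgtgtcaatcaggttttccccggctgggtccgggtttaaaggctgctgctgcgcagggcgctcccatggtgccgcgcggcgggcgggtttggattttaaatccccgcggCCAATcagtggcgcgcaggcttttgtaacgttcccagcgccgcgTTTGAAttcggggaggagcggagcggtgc
CDC20, chr1:43358781-43358980, plus strand: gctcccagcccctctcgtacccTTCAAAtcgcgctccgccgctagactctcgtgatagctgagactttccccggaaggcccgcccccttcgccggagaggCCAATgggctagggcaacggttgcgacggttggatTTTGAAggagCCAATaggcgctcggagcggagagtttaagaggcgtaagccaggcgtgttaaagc
CCNA2, chr4:121823884-121824083, minus strand: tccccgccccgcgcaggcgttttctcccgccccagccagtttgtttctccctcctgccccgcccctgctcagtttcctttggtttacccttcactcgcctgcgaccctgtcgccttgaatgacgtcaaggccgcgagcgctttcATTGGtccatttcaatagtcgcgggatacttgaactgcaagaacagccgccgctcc
MCM6, GINS2, MCM7 and PCNA belong to the S phase group, and each of these runs held an E2F word. CCNB2, PLK1 and CDC20 are mitotic, and each held a CHR word with at least 1 CCAAT box upstream of it. The run of CCNA2 held a CCAAT box and neither of the other words.

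Over whole windows (250 bases before to 50 bases after a start, any listed start of a gene), 36 members had a sequence, and MCM4, MCM5, CCNE2, CDK2, AURKA and TTK had none in the table used. An E2F word was present in 20 of 24 S phase members and 3 of 12 mitotic members, against 17.6% of the 15382 measured genes with a window. The order was turned for the CHR words, which were present in 2 of 24 S phase members and 9 of 12 mitotic members, against 17.2% of genes. CCAAT boxes were found in 16 of 24 and 11 of 12, against 41.7% of genes. The windows of 8 members came from more than 1 start, and per window, not per gene, the shares over all genes were 13.7%, 13.6% and 34.5%. A match of letters is a description of the sequence and not a measured binding site.

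The rule asked which of the 2 related cultures, L540 or L540Cy, stands apart in these genes. It was L540Cy whose values lay outside those of the other lines more often. L540Cy had the lowest signal of all 15 arrays for 21 of the 42 members, 16 of S phase and 5 of mitosis (E2F2 among them by only 0.08 log2), while L540 had the lowest for 0. Over all genes, L540Cy was the lowest array for 7.57% and L540 for 3.91%. Against the 13 arrays of the 7 other lines alone, L540Cy lay below every array for 21 members (50%) and above every array for 0, where 8.62% and 9.17% of all genes did so. L540 lay below all 13 arrays for 3 members (MCM7, GINS1 and POLA1) and above all 13 for 2 (CCNB1 and MKI67), against 5.79% and 8.6% of all genes. With either other probe set choice the count above was 0. Among the 6658 genes as bright as most members (mean log2 of at least 8), 14.4% lay below all 13 arrays in L540Cy and 8.23% in L540. Fewer cycling cells and less of these RNAs per cell cannot be told apart in RNA from a whole culture.

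Each array was described by the median deviation of the members from the mean of the 7 other lines. In L540Cy this median was -0.90 log2 for S phase members and -0.41 log2 for mitotic members. In L540 it was -0.22 and -0.05 log2. The next lowest S phase medians were -0.44 and -0.42 log2, in the 2 arrays of HDLM2, so L540Cy stood apart from all other arrays on this group. On the mitotic group both arrays of KM-H2 (-0.67 and -0.50 log2) and HDLM2 replicate 1 (-0.45 log2) were lower, but this order rests on the choice of probe set. With a gene's probe sets averaged, the mitotic median of L540Cy was -0.63 log2, and with the most variable probe set -0.78 log2, each the lowest of the 15 arrays, while its S phase medians were -0.92 and -1.31 log2, also the lowest. The medians of duplicate arrays also differed (6 lines). The widest S phase gap was in Reh, at 0.08 and 0.34 log2. The widest mitotic gap was in HDLM2, at -0.45 and -0.06 log2, near the size of the mitotic deviation of L540Cy on these probe sets. Across the 9 lines the S phase and mitotic medians had a Pearson correlation of 0.71 (0.72 over 8 lines without L540Cy), a description over lines that share the array processing.

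**Figure D1:**
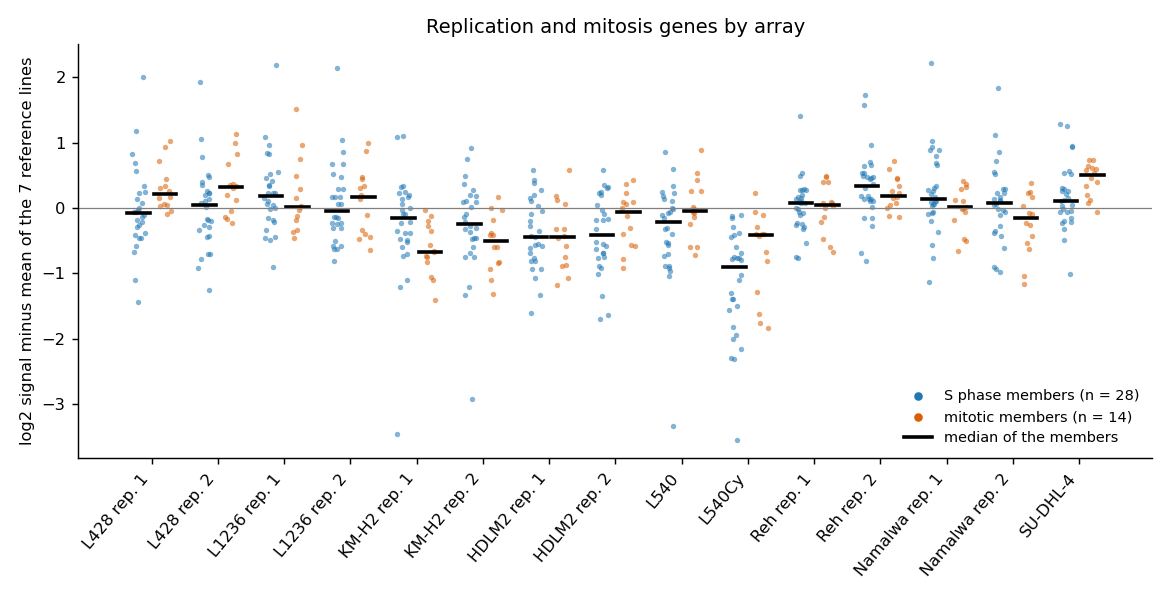
Each point is the log2 signal of 1 member in 1 array minus the mean of the 7 reference lines (all lines but L540 and L540Cy), for 28 S phase members (blue) and 14 mitotic members (orange); black bars are medians. The S phase median of L540Cy, at -0.90, is the lowest of the 15 arrays, and the mitotic median of KM-H2 replicate 1, at -0.67, is lower than that of L540Cy on these probe sets.

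In its general level the array of L540Cy was not apart from the others. RMA as a rule brings arrays to a common distribution of signals, so this likeness cannot show that the array or its RNA was ordinary. Array medians lay between 5.50 and 5.57 log2, with L540 and L540Cy both at 5.55, and the median deviation over all genes was -0.01 log2 in L540Cy and 0.01 in L540. The upper quartile was 7.31 log2 in Namalwa replicate 2 and 7.54 to 7.72 in the other arrays. The ACTB 3′ minus 5′ control signal, a sign of RNA integrity and labelling, was 1.22 log2 in L540Cy, the highest of the 15, with 0.95 in L540 and 0.37 to 1.16 elsewhere, while the GAPDH measure was 0.15 in L540Cy and 0.14 to 0.25 elsewhere. The part of that ACTB ratio in the results was not tested. The profile of L540Cy over 19735 genes, centred on the mean of the 9 lines, had a correlation of 0.71 with L540 and of 0.04 or less with every other array. Hodgkin cell markers had medians of 11.19 log2 in L540 and 11.18 in L540Cy over 8 genes, but not all were high. CCL17 (6.20 log2 in L540 and 7.34 in L540Cy), FSCN1 (7.54 and 9.16) and GATA3 (10.23 and 8.97) were below all arrays of the other Hodgkin lines. IRF4 (12.64 and 12.42) was above all 13 other arrays in both. Single markers moved both ways between the cultures, from -1.26 log2 for GATA3 to 1.73 for TRAF1, with 4 of 8 at an unadjusted p under 0.05 and 0 called. All 5 B cell markers were at 6.22 log2 or less in both. Medians for markers of T cells, monocytes, fibroblasts and endothelium lay between 4.56 and 5.98 log2 in the 2 cultures, inside the range of the other 13 arrays (4.49 to 6.48). Of the T cell list, CD247, a T cell receptor subunit, was at 10.21 log2 in L540 and 10.50 in L540Cy, and CD2 at 6.70 and 4.89 log2.

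L540Cy was lower than L540 for all 42 members, against 52.4% of all genes, with a median difference of -0.69 log2 where the median over all genes was -0.02. In 14 members the difference was at least 1 log2, against 2.62% of all genes and 4.45% of those with a mean of at least 8. Between duplicate arrays of the other 6 lines the median member difference ran from -0.17 to 0.25 log2, and at most 1 member differed by more than 1 log2 (TOP2A in HDLM2, CCNE2 in Reh). In a limma fit over all genes with Benjamini-Hochberg adjustment, 7 members fell past an adjusted p of 0.05 and 0 rose, against 0.846% of all genes lower and 0.644% higher. In that fit 23 members had an unadjusted p under 0.05. Here and wherever such unadjusted counts are given, they were not set against a share over all genes. Of the 94 member probe sets, 89 were lower in L540Cy, and of the 82 with a mean of at least 6, 79 were lower.

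**Figure D2:**
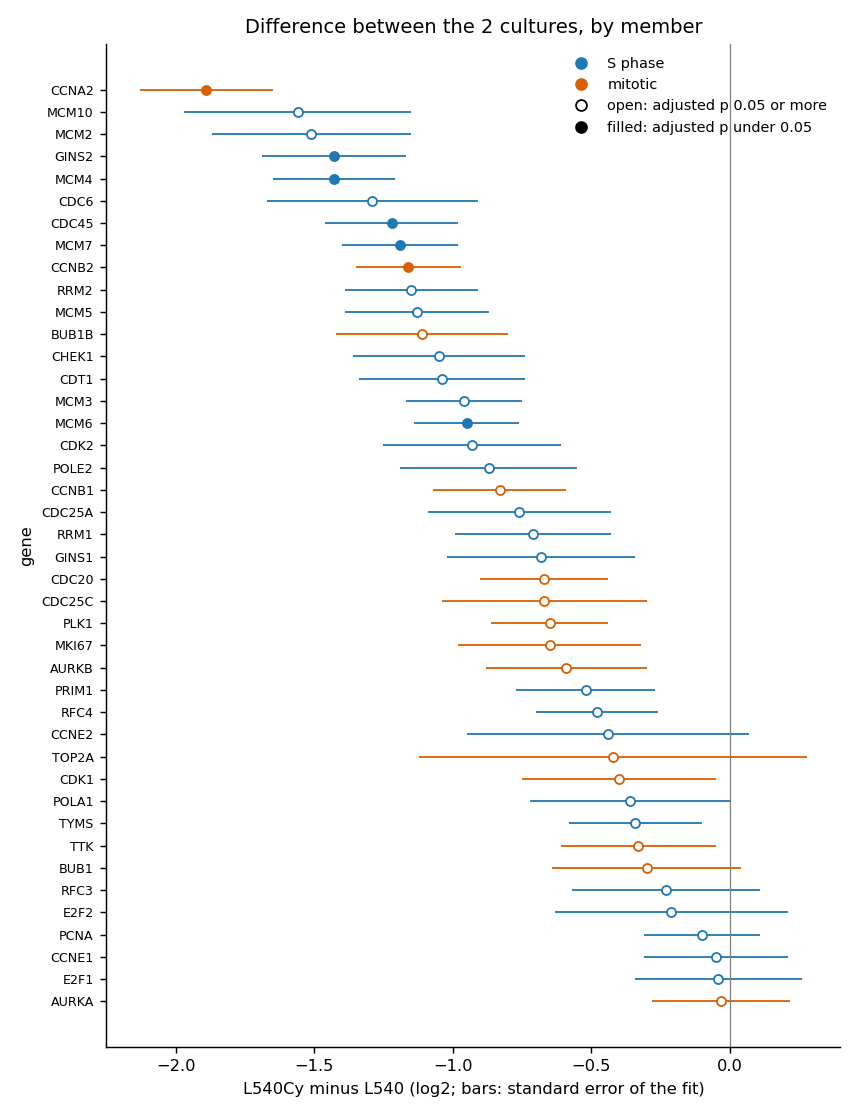
The log2 difference L540Cy minus L540 for each of the 42 members, ordered by size, with the standard error of the limma fit; filled points have an adjusted p under 0.05. All 42 points lie below 0, from -1.89 for CCNA2 to -0.03 for AURKA.

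The 5 S phase calls were all parts of the active helicase, the ring subunits MCM4, MCM6 and MCM7 with CDC45 and GINS2. MCM4, a subunit of the ring, was at 10.07 log2 in L540 and 8.64 in L540Cy, with 8.76, 10.46 and 11.40 as the lowest, median and highest of the other 13 arrays. L540Cy thus lay just below the lowest of them, an array of HDLM2, and its difference from L540 was -1.43 ± 0.22 log2 (SE, 2.69-fold lower, adjusted p = 0.0139). MCM7 was at 11.06 log2 in L540 and 9.87 in L540Cy, with 11.26, 12.09 and 12.38 in the others. Both cultures were below all other arrays for this subunit, and L540Cy was a further 2.28-fold below L540 (-1.19 ± 0.21 log2, adjusted p = 0.0245). MCM6 was at 12.56 log2 in L540, 11.61 in L540Cy and 12.32 to 13.04 elsewhere (-0.95 ± 0.19 log2, adjusted p = 0.0448), and its second probe set moved by -0.57 log2, with an adjusted p of 0.907.

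The remaining ring subunits had differences that missed the threshold. MCM2 was at 12.09 log2 in L540, 10.58 in L540Cy and 11.65, 12.06 and 12.63 in the other arrays. L540Cy was 1.07 log2 below the lowest of those 13 arrays, but the difference from L540 (-1.51 ± 0.36 log2) had an adjusted p of 0.0863, with a wide spread between the arrays of Reh (11.76 and 12.63). MCM3 was at 11.61 and 10.65 log2 (adjusted p = 0.0581) and MCM5 at 11.33 and 10.20 log2 (adjusted p = 0.0707) in L540 and L540Cy. Without either array of Reh, 13 members were called lower in place of 7, where 1.38% of all genes were called lower. The count was 3 without either array of L428 (0.492% of all genes) and 4 without either of KM-H2 (0.638%).

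CDC45 and GINS2 belong to the factors that complete the active helicase. CDC45 was at 9.49 log2 in L540, 8.27 in L540Cy and 9.18, 9.64 and 10.15 in the other arrays. That is a difference of -1.22 ± 0.24 log2 (adjusted p = 0.04), with L540Cy 0.91 log2 under every other array. GINS2 was at 10.11 log2 in L540 and 8.69 in L540Cy, with 9.35, 11.10 and 12.17 elsewhere (-1.43 ± 0.26 log2, adjusted p = 0.0287). Averaged over its 3 probe sets, the GINS2 difference was -0.47 log2 (adjusted p = 0.411). GINS1, of the same complex, was at 9.65 and 8.97 log2, both below the 9.84 to 11.39 of the other arrays (-0.68 ± 0.34 log2, adjusted p = 0.539). MCM10, a scaffold of the firing origin, was at 9.77 and 8.21 log2 against 9.50, 10.55 and 12.52 elsewhere (-1.56 ± 0.41 log2, adjusted p = 0.117).

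Of the loading factors, CDC6 was at 8.30 log2 in L540, 7.0 in L540Cy and 7.93, 9.15 and 9.97 in the other arrays (-1.29 ± 0.38 log2, adjusted p = 0.162). CDT1 was at 9.29 and 8.25 log2, with 8.85, 10.20 and 11.30 elsewhere (-1.04 ± 0.30 log2, adjusted p = 0.158). L540Cy was again the lowest array for both.

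Not every S phase gene differed by as much. PCNA, the sliding clamp of the polymerases, was at 12.65 log2 in L540 and 12.56 in L540Cy, inside the range of the other arrays (12.16 to 13.42). E2F1, itself a target of E2F, was at 9.06 and 9.02 log2, and cyclin E1 (CCNE1) at 8.90 and 8.85 log2, both inside the range of the other 13 arrays. TYMS, thymidylate synthase, was at 13.30 and 12.96 log2, with 12.49 to 13.60 elsewhere. RRM2, the regulated subunit of ribonucleotide reductase, was at 13.88 log2 in L540 and 12.73 in L540Cy (-1.15 ± 0.24 log2, adjusted p = 0.0511). RRM2 thus differed by more than the genes just named, with -1.61 log2 on its other probe set. TYMS differed by -0.34 log2, with -0.59 and -0.12 on its other probe sets. E2F1 differed by -0.04 log2, with -0.42 on its other probe set. What kept RRM2 from the lowest place was its level. L540 had the second highest RRM2 signal of the 15 arrays, and L540Cy stayed inside the range of the others (11.68 to 13.99). The difference was -0.10 log2 for PCNA and -1.43 log2 for GINS2, whose promoter runs above both hold the word GCGGGAA.

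Among mitotic members, cyclin A2 and cyclin B2 were called. CCNA2, which acts in S phase and on entry into mitosis, was at 11.29 log2 in L540 and 9.40 in L540Cy. The other 13 arrays had 10.13, 11.10 and 11.63 as lowest, median and highest, so L540 sat in their upper part and L540Cy under all of them. The difference of -1.89 ± 0.24 log2 (3.71-fold lower, adjusted p = 0.00497) was the largest of the 42. CCNB2, a partner of CDK1, was at 11.26 log2 in L540, 10.10 in L540Cy and 11.20, 11.90 and 12.20 in the others (-1.16 ± 0.19 log2, adjusted p = 0.0168), and averaged over its 3 probe sets the difference was -0.58 log2 (adjusted p = 0.156). Of the 7 calls, those of CCNA2 and MCM4 held in 19 of 19 alternative settings, CCNB2 in 18, MCM7 in 17, GINS2 in 14, CDC45 in 11 and MCM6 in 7.

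The other mitotic members had smaller differences. CCNB1 was at 12.12 log2 in L540, the highest of all 15 arrays on the chosen probe set, and at 11.29 in L540Cy, within the 11.13 to 12.03 of the others (-0.83 ± 0.24 log2, adjusted p = 0.165). BUB1B, a checkpoint kinase-like protein, was at 10.56 and 9.44 log2, with 10.23 to 11.92 elsewhere (-1.11 ± 0.31 log2, adjusted p = 0.143). CDC20, which activates the anaphase-promoting complex, was at 11.35 and 10.68 log2, with 10.92 to 11.98 elsewhere (-0.67 ± 0.23 log2, adjusted p = 0.256). CDK1 was at 12.12 and 11.72 log2, PLK1 at 10.35 and 9.70, BUB1 at 10.46 and 10.15, TTK at 10.12 and 9.79 and AURKA at 10.77 and 10.73, all inside the range of the other arrays. The sign of the AURKA difference was not stable: it was 0.11 log2 with its most variable probe set.

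MKI67, which codes for the proliferation antigen Ki-67, was at 11.17 log2 in L540, the highest of all arrays on the chosen probe set, and at 10.52 in L540Cy, with 9.35, 10.45 and 10.86 elsewhere. On the chosen probe set L540Cy was therefore above the median of the others. The other 3 MKI67 probe sets differed more between the cultures, by -1.10, -1.54 and -1.73 log2, against -0.65 for the chosen one. With the most variable of them, the deviation of L540Cy from the 7 other lines turned from 0.23 to -1.94 log2. TOP2A, the topoisomerase that untangles sister chromatids, was at 11.69 and 11.27 log2. Its duplicates lay far apart, at 10.76 and 12.17 in HDLM2 and at 11.99 and 12.94 in L428, and the second array was higher in 5 of 6 lines, so the difference of -0.42 log2 had an SE of 0.70.

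**Figure D3:**
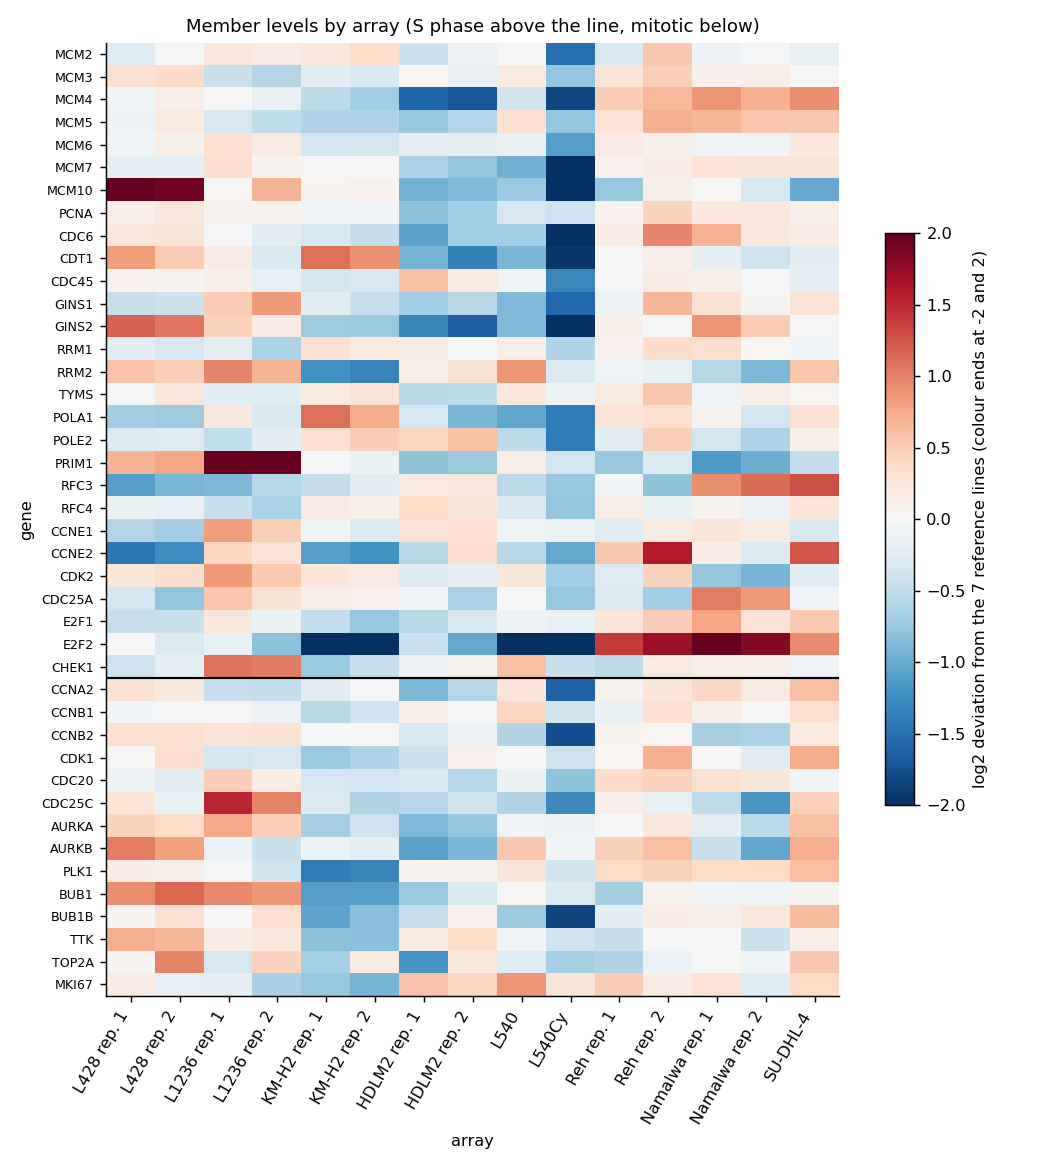
Colour gives the log2 deviation of each member (rows, S phase above the black line and mitotic below) in each of the 15 arrays (columns) from the mean of the 7 reference lines. The L540Cy column is blue for 41 of the 42 members, and single lines show their own strong rows, such as MCM10 in L428, PRIM1 in L1236 and E2F2 in KM-H2, L540 and L540Cy.

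Set against the 7 other lines with the line as replicate, 0 members were called in L540, in either direction, where 0.0861% of all genes were called lower and 0.289% higher (limma, 1 member with an unadjusted p under 0.05). Of its members 27 lay below and 15 above the mean of those lines. The 5 largest deviations were E2F2 (-3.33 ± 1.70 log2, SE), POLA1 (-1.04 ± 0.56), MCM7 (-0.97 ± 0.35), CDT1 (-0.91 ± 0.69) and GINS1 (-0.89 ± 0.47), with adjusted p-values of 0.715 to 0.999. For L540Cy 41 of 42 members lay below that mean, 15 of them with an unadjusted p under 0.05, and 1 was called, MCM2 at -1.51 ± 0.22 log2 (adjusted p = 0.0401). Of all genes 0.228% were called lower and 0.41% higher in this comparison. MCM7 (-2.16 ± 0.35 log2, adjusted p = 0.0557), CDC45 (-1.30 ± 0.25, 0.103) and CCNB2 (-1.76 ± 0.35, 0.109) came next. The 2 comparisons share the 7 reference lines, and the call of MCM2 held in 7 of 18 alternative settings, being lost without Reh replicate 1 and without the lines L428, L1236, Reh or SU-DHL-4; without HDLM2, 2 members were called.

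**Figure D4:**
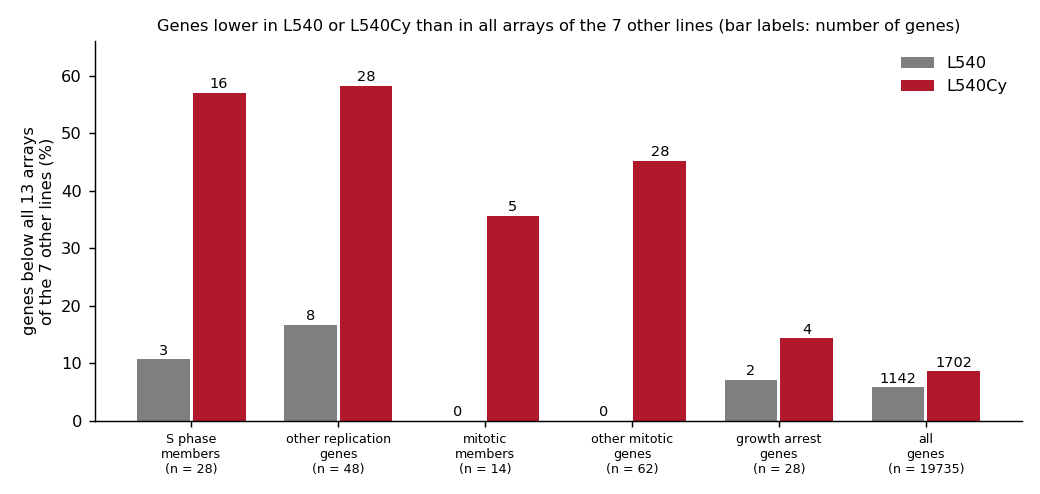
Bars give the percentage of each gene list whose signal in L540 (grey) or L540Cy (red) was below all 13 arrays of the 7 other lines, with the number of genes above each bar. Bars of L540Cy reach 57.1% for S phase members and 35.7% for mitotic members, against 8.62% of all genes; those of L540 are 10.7% and 0%, against 5.79%.

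Of 48 other replication and repair genes measured, 6 were called lower in L540Cy than in L540 and 0 higher (median -0.69 log2). Over all genes 0.846% were called lower and 0.644% higher. Of the 48 differences 42 were below 0, against 52.4% of all genes. The 6 were E2F8 (-2.57 ± 0.41 log2), a repressor of the E2F family that is itself made in S phase, UHRF1 (-2.18 ± 0.28), which keeps DNA methylation through replication, ORC1 (-1.64 ± 0.26), of the origin recognition complex, thymidine kinase TK1 (-1.44 ± 0.20), the flap nuclease FEN1 (-1.42 ± 0.25) and FANCI (-1.27 ± 0.24), with adjusted p-values of 0.00614 to 0.0317. L540Cy lay below all 13 other arrays for 28 of the 48 (58.3%) and L540 for 8 (16.7%), against 8.62% and 5.79% of all genes. E2F7, the close relative of E2F8, had the opposite sign, at 9.14 log2 in L540 and 10.77 in L540Cy, above all other arrays (6.12 to 9.46), and was not called.

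Of 62 other mitotic genes, 5 were called lower and 0 higher (median -0.58 log2), against 0.846% and 0.644% of all genes. The 5 were SPC25 of the kinetochore (-1.82 ± 0.35 log2), the kinesin KIF20A (-1.78 ± 0.20), the spindle pole protein ASPM (-1.32 ± 0.26), CENPU (-1.25 ± 0.24) and DLGAP5 (-1.24 ± 0.25). L540Cy lay below all 13 arrays for 28 of these 62 (45.2%) and L540 for 0, against 8.62% and 5.79% of all genes. KIF20A was at 10.08 log2 in L540, 8.30 in L540Cy and 9.65, 10.06 and 10.65 in the others.

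In a list of 28 growth arrest and cell cycle exit genes, 1 was called higher and 0 lower, against 0.644% and 0.846% of all genes. GADD45A, a growth arrest gene induced by DNA damage and other stress, was at 9.58 log2 in L540, 12.42 in L540Cy and 8.70, 10.16 and 11.12 in the other arrays (2.85 ± 0.37 log2, adjusted p = 0.00612). Its signal in L540Cy was above every other array. The p21 gene CDKN1A was at 11.12 and 11.89 log2, both above the 6.90 to 10.04 of the other lines, and the stress-induced SESN2 at 8.99 and 10.76 log2, with 7.71 to 9.58 elsewhere; neither difference was called. The p27 gene CDKN1B was at 10.84 and 10.88 log2. L540Cy was above all 13 arrays for 6 of the 28 genes (21.4%), against 9.17% of all genes. It was below them for 4 (14.3%: CDKN2A, E2F5, LIN54 and TP53INP1), against 8.62% of all genes.

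Across lines, the members varied far more than duplicate arrays did. An F test among the 9 lines called 40 of 42 members, against 52% of all genes, with RRM1 (adjusted p = 0.0515) and TOP2A (adjusted p = 0.607) not called. The median range of line means was 1.85 log2, against 1.09 over all genes. Part of this gap goes with brightness. Among the 11321 genes with a mean of at least 6, 75.9% were called and the median range was 1.55 log2. The widest was E2F2, an E2F activator of S phase genes (range 5.58 log2, adjusted p = 2.07e-06). It was at 5.70 and 6.24 log2 in KM-H2, 5.83 in L540 and 5.62 in L540Cy. The other Hodgkin lines were between 8.15 and 9.17, and the 3 non-Hodgkin lines between 10.11 and 11.39, highest in Namalwa, so E2F2 fell into 3 levels that did not overlap. The lowest of these levels is near the array median of 5.55, so it was not shown to be above background, the arrays within it have no order, and the size of a difference from it is uncertain. E2F1 had no such low level, but its Hodgkin arrays (8.41 to 9.40 log2) also lay below its non-Hodgkin arrays (9.44 to 9.96 log2), by a narrow gap.

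Other members were set apart by single lines. MCM10 was at 12.52 and 12.44 log2 in L428, and at most 11.19 in every other array. PRIM1, the catalytic primase subunit that starts each new strand, was at 13.19 and 13.14 log2 in L1236, next 11.68 and 11.78 in L428 and 9.86 to 11.13 in the rest (range of line means 3.23 log2, adjusted p = 4.87e-06). RFC3, part of the clamp loader, was at 11.87 and 12.06 log2 in Namalwa and 12.22 in SU-DHL-4, above all other arrays (9.83 to 11.17), while RFC4 of the same complex ran only from 10.83 to 11.99 log2. CCNE2 was low in L428 (7.37 and 7.56 log2) and KM-H2 (7.71 and 7.6) and reached 10.39 in Reh replicate 2, but its arrays in Reh were 1.05 log2 apart. CCNE1 did not follow it, at 8.73 and 9.15 log2 in Reh and highest in L1236 (9.80 and 9.44).

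KM-H2 was low in several mitotic members. PLK1, a kinase of mitotic entry and spindle assembly, was at 8.69 and 8.78 log2 there and 9.70 to 10.69 in all other arrays. BUB1 was at 9.34 and 9.33 log2, and TTK at 9.37 and 9.35, each pair the lowest of the 15 arrays, and RRM2, of S phase, was also lowest in KM-H2 (11.81 and 11.68). In the same 2 arrays CDT1 (11.30 and 11.12 log2) and POLA1 of the priming polymerase (10.57 and 10.22) were the highest of all. KM-H2 and L540Cy were also the lowest 2 of the 9 line means for PLK1, CCNB1, CDK1, TTK, CHEK1, MCM6, CDC45 and BUB1B. They differed in other members: RRM2 was at 12.73 log2 in L540Cy, and MCM2 was at 12.31 and 12.45 log2 in KM-H2 against 10.58 in L540Cy.

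**Figure D5:**
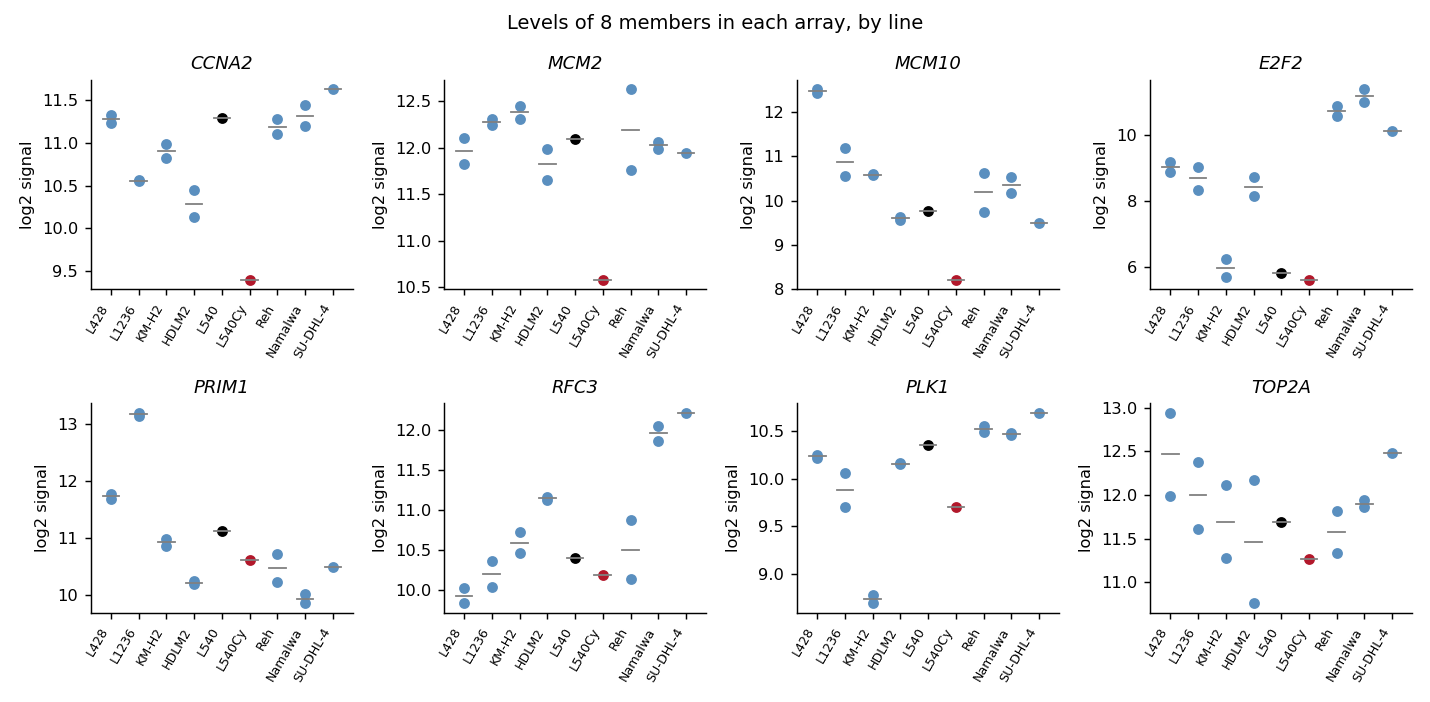
Log2 signal of 8 members in each array, grouped by line, with the line mean as a grey bar; L540 is black, L540Cy red and the other lines blue. L540Cy is the lowest point for CCNA2 (9.40), MCM2 (10.58) and MCM10 (8.21), and shares the low level of E2F2 with KM-H2 and L540, L1236 is highest for PRIM1, Namalwa and SU-DHL-4 for RFC3, KM-H2 is lowest for PLK1, and the duplicates of TOP2A lie far apart.

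Between 5 Hodgkin lines (L540 averaged with L540Cy) and 3 non-Hodgkin lines, 0 of 42 members passed the threshold, where 0.598% of all genes were called lower and 0.76% higher. In this limma fit 9 members had an unadjusted p under 0.05, and 33 of 42 differences were below 0 (median -0.27 log2, against -0.02 over all genes). All 5 Hodgkin lines lay below all 3 other lines for 6 members (MCM4, MCM5, E2F1, E2F2, CCNB1 and PLK1), 14.3% of them, against 5.48% of all genes. With L540 alone, not averaged with L540Cy, CCNB1 was no longer among them (5 members, 5.23% of all genes). MCM5 was at 10.62 ± 0.29 log2 (SD, n = 5) in Hodgkin lines and 11.54 ± 0.05 (SD, n = 3) in the others, with an adjusted p of 0.0601. E2F1 was at 8.85 ± 0.27 against 9.65 ± 0.08 log2 (adjusted p = 0.0762), and E2F2 at 7.57 ± 1.59 against 10.68 ± 0.54 (adjusted p = 0.171). MCM4 was at 9.78 ± 0.71 against 11.23 ± 0.19 log2 (adjusted p = 0.158), lowest in HDLM2. The CCNE2 difference was -1.36 ± 0.47 log2 (SE, adjusted p = 0.26) and that of RFC3 -1.13 ± 0.44 log2 (adjusted p = 0.302), which turned to 0.51 log2 with the most variable RFC3 probe set. PRIM1 had the largest positive difference (1.08 ± 0.62 log2, adjusted p = 0.491), with L1236 and L428 as its highest lines. Without L428, 1 member was called lower, with 0.426% of all genes. Of the wider lists, POLE3, a polymerase epsilon subunit, was the 1 gene of 48 called lower (-1.67 ± 0.22 log2, adjusted p = 0.0164), and 0 of 62 other mitotic genes were called.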

How the data were processed

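The authors deposited log2 signals per probe set made with RMA, per the submitters' processing notes; the sources used here name no software or settings. RMA compresses differences near background. Of 54675 probe sets, 62 were controls, 41091 had 1 gene symbol, 1801 several and 11721 none; 41037 matched the RefSeq gene table (GRCh38.p14) by Entrez identifier, giving 19735 genes. The members and gene lists were chosen with earlier results of these data known. No filter on dim genes was applied.

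Fits used limma 3.58.1 in R 4.3.3 with p-values adjusted by Benjamini-Hochberg over the 19735 genes and called under 0.05: 1 mean per line (15 arrays, 6 residual degrees of freedom) for L540Cy minus L540 and the F test, and line means for 1 line against 7 and for Hodgkin against non-Hodgkin lines. All tests were two-sided. The spread comes from few lines or duplicate arrays, and the number of arrays limits the precision. Each fit was run on simulated data before use. Of genes with a planted change of 1 log2, 7% were recovered for L540Cy minus L540 and 1% for 1 line against 7. The F test recovered 0% and Hodgkin against non-Hodgkin lines 25%. For the F test the change was planted in L540Cy alone, in simulated lines that did not otherwise differ. Its shares therefore do not give the power of the F test on the real lines, which called 52% of genes. At 2 log2 the shares were 68% for L540Cy minus L540 and 26% to 27% for 1 line against 7. They were 37% in the F test and 51% for Hodgkin against non-Hodgkin lines. A member that was not called was therefore not shown to be unchanged. Named genes are the 42 members. From the other lists, called genes and fixed markers were named. E2F7, SESN2, CDKN1A, CDKN1B, CD247, CDKN2A, E2F5, LIN54 and TP53INP1 were named after their values were seen. Python 3.11.15 made the descriptions. Alternatives changed the probe set choice, the normalization, the filter, the variance model, the reference lines and the arrays left out.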

Additional observations from a re-analysis of the deposited data

Results flagged for a closer look

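Each of the 42 members was examined over the 5 Hodgkin lines (L540 averaged with L540Cy) for a line whose gap to its nearest neighbour took up most of the range, at Dixon's critical value for 5 values. Both members found this way were low in KM-H2. CCNB1 was at 11.21 log2 in KM-H2 and at 11.64 to 11.75 in the other 4 lines, where L540 (12.12) and L540Cy (11.29) entered as their mean. PLK1 was at 8.73 log2 in KM-H2 and at 9.88 to 10.23 in the others. Chance flags about 1 in 20 such groups, and here 2 of 42 were found.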

How the results depend on the processing

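With 1 array each for L540 and L540Cy, neither has a replicate of its own, and the spread of duplicates of other lines was assumed for both. Members called lower in L540Cy than in L540 numbered 3 (without either array of L428) to 13 (without either array of Reh) when single arrays were left out, 4 without either array of KM-H2, and 13 without Reh replicate 1. A line left with 1 array was assumed to vary like the others.

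The count for L540Cy against the 7 other lines, 1 in the report, became 2 with either other probe set choice, and 0 after quantile normalization, with a mean signal of at least 6, with trend and robust variance, without Reh replicate 1, against the 4 other Hodgkin lines or with replicate 1 arrays only; it was 0 to 2 when single lines were left out. Judged by the spread between duplicate arrays, in place of that between lines, 21 members were lower in L540Cy, and 7 were lower and 2 higher in L540. That setting called 11.1% of all genes lower in L540Cy and 8.09% in L540. In either direction it called 20.6% and 15.2%.

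For Hodgkin against non-Hodgkin lines, 1 member was called lower when probe sets were averaged or when L428 was left out (0.806% and 0.426% of all genes), and 2 with 12 numbered arrays and the line as a random block (1.39% of all genes); with the replicate block added this count was 0 (1.23%). In the F test the 12 numbered arrays called 37 members (50.9% of all genes), and 38 with the replicate block (53.5% of all genes). Duplicate differences correlated at 0.14 to 0.36 in all 10 pairs of lines without Namalwa and at -0.07 to 0.06 in the 5 pairs with it, and the ACTB ratio was lower in replicate 2 in 6 of 6 lines. Since not every pair was over 0.1 and the labels name no shared step, the numbers were not taken to pair the arrays, although the lines other than Namalwa deviated together by number. For L540Cy minus L540, a fit with the replicate block, added after seeing the data, called 10 members lower and 0 higher (1.12% of all genes lower); L540 and L540Cy carry no number and were given the same level.

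The number of members for which L540 was above all 13 arrays, 2 in the report, was 0 with either other probe set choice. Median deviations moved to -0.09 log2 (S phase, L540, 4 Hodgkin lines as reference), -1.31 (S phase, L540Cy, most variable probe set), 0.08 (mitotic, L540, mean of probe sets), and -0.63 and -0.78 (mitotic, L540Cy, mean and most variable probe sets); the S phase median of L540Cy minus L540 was -0.72 with the mean of probe sets.

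Some members near 0 changed sign. AURKA in L540Cy minus L540 was 0.11 log2 with the most variable probe set and 0.00 after quantile normalization. Against the 7 lines, in L540Cy, the values were 0.00 for TYMS and 0.21 for E2F1 with 4 Hodgkin lines, 0.05 for CCNE1 and 0.03 for AURKA with the mean of probe sets, 0.13 for AURKA with the most variable one, and -0.97 and -1.94 for MKI67 with these. AURKB was 0.02 with the mean of probe sets, 0.01 with centred arrays, 0.07 with 4 Hodgkin lines and -0.23 to 0.09 when single lines were left out. RFC3 was 0.51 in Hodgkin lines with the most variable probe set. The cause of these changes was not tested.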
